A study of Mus musculus with 8 samples.

Results

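The annexins are a family of calcium-dependent membrane-binding proteins, and 10 of their genes were chosen by name: Anxa1 to Anxa9 and Anxa11. Of these, 9 had a probe set of their own among the 22180 genes tested, and Anxa11 had none. A gene with more than 1 probe set would have been read from its brightest by mean over the 8 arrays, but each of the 9 had exactly 1. The RNA came from B-1a cells, B cells of the body cavities that renew themselves, sorted from the peritoneal cavity of mice aged 5 weeks and read on Affymetrix arrays. KO mice were PTIPflox/flox, and the controls, labelled WT, were PTIP+/+. Both genotypes also carry 1 copy of a Cre recombinase active in the B lineage, and they differ in whether the gene for PTIP, Paxip1, is flanked by loxP sites. RNA of 29 KO and 22 WT mice went into 4 replicate samples of each genotype, so each array is a pool of mice. The comparison asks which transcripts differ when PTIP, a subunit of histone methyltransferase complexes, is lost from B-1a cells.

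An annexin core is built from repeats of a conserved fold whose calcium ions bridge the protein to acidic phospholipids such as phosphatidylserine. The amino-terminal tails differ between members and hold the binding sites for partners, such as the S100 proteins. ANXA1 is known as a glucocorticoid-induced inhibitor of phospholipase A2 signalling and as a ligand of formyl peptide receptors, ANXA2 pairs with S100A10 at the plasma membrane, and ANXA5 is used in the laboratory to stain dying cells that expose phosphatidylserine.

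Of the 9 annexin genes tested, Anxa1 rose 3.81-fold in KO and the other 8 were not called, with differences between -0.21 and 0.11 on the log2 scale. A gene is described as called where limma, a linear model fitted over all 22180 genes, gave a Benjamini-Hochberg adjusted p under 0.05. Of all tested genes 3.59% were called, and 1.49% were called as higher in KO. The family was picked with the result for Anxa1 already known, so nothing is read from that share, and the adjusted p values of its members are given as a description of these arrays. The median difference was 0.00 over the 9 genes and 0.02 over all tested genes. Values are log2 values after RMA, which gives probe intensities of all arrays 1 shared distribution, so a difference is relative to the other genes. They compare pools for 1 gene, not 1 gene with another.

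The promoters of Anxa1, the called member, and of Anxa2 and Anxa5, members that were not called, are printed as the 250 bases before the transcript start (RefSeq, GRCm38.p6). Capitals mark any match, on either strand, to the TATA box, the CCAAT box, the GC box, the AP-1 site or the glucocorticoid receptor half-site, as spelled out after the sequences.
Anxa1, chr19:20390672-20390921, minus strand: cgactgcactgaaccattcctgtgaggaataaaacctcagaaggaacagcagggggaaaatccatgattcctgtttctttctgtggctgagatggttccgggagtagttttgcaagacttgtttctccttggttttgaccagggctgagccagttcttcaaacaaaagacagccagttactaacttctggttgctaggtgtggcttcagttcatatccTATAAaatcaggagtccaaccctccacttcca
Anxa2, chr9:69453433-69453682, plus strand: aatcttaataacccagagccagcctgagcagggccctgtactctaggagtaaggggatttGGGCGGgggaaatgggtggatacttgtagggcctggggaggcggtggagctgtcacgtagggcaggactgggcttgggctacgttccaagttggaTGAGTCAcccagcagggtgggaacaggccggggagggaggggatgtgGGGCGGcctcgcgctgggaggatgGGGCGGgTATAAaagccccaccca
Anxa5, chr3:36475888-36476137, minus strand: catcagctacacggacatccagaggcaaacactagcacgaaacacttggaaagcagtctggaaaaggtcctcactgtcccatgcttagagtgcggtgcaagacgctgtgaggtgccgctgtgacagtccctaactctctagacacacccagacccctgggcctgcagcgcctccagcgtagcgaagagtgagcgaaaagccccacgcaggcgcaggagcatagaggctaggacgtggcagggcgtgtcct

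The Anxa1 stretch held 1 TATAA match, starting at position -32 from the transcript start, and none of the other motifs. It had 2 CpG dinucleotides, against a median of 6 over 32851 promoter entries of this length. The Anxa2 stretch held TATAA at -17, TGACTCA on the minus strand at -95 and 3 GC boxes, with 9 CpG dinucleotides. The Anxa5 stretch held none of the motifs and 13 CpG dinucleotides. RefSeq promoter entries matched 8 of the 10 genes, with 11 starts in all, and Anxa3 and Anxa6 had no entry. The TATA box was searched as TATAA, which occurred in 22.8% of all promoter entries, and the CCAAT box by those letters, which occurred in 33.8%. The GC box, GGGCGG, occurred in 32.7%, the AP-1 site, TGACTCA, in 4.46% and the glucocorticoid receptor half-site, AGAACA, in 16.1%. No marked matches overlapped in the sequences printed. A match describes the letters of the stretch and is no evidence that a factor binds there.

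Anxa1 stood at log2 values of 6.52, 6.70, 6.94 and 7.21 in KO pools 1 to 4 and at 5.25, 4.55, 4.97 and 4.87 in WT pools 1 to 4. Every KO pool lay above every WT pool, with a gap of more than 1 log2 unit between the lowest KO and the highest WT value. The group values were 6.84 ± 0.30 in KO and 4.91 ± 0.29 in WT (SD of 4 pools each). KO exceeded WT by 1.93 (SE 0.17, 95% confidence interval 1.56 to 2.30, adjusted p = 0.000149 in limma). Values of the 4 KO and 4 WT pools did not overlap for 10.5% of all tested genes.

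**Figure D1:**
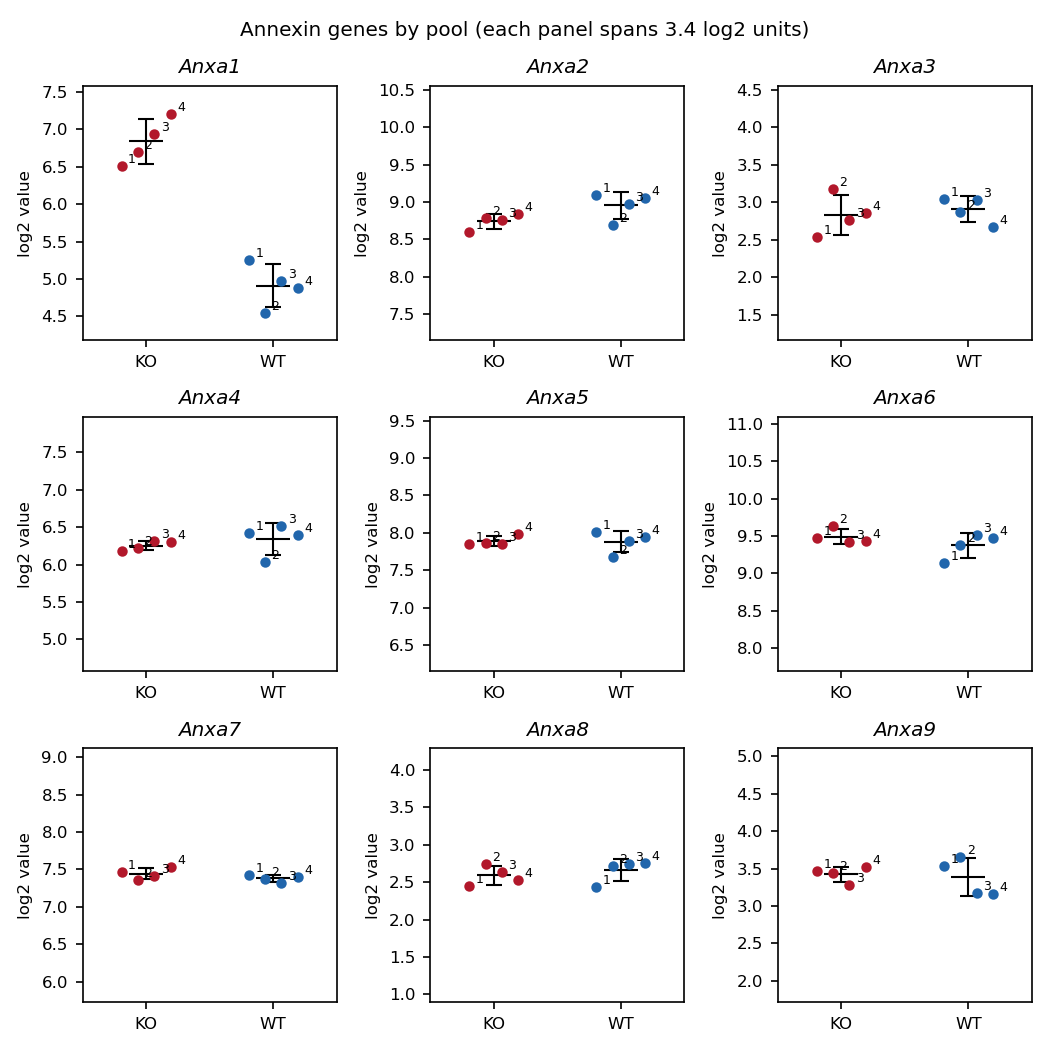
RMA log2 values of the 9 annexin genes in each pool, KO in red and WT in blue. Numbers are replicate numbers, horizontal bars the group means and whiskers the SD of 4 pools. All panels span the same number of log2 units. The KO pools of Anxa1 sit between 6.52 and 7.21, above all WT pools, while the groups overlap in the other 8 panels.

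Anxa2 encodes the partner of S100A10 in a cell-surface complex that binds plasminogen activators and plasminogen. It stood at 8.60, 8.78, 8.75 and 8.84 in KO and at 9.09, 8.70, 8.97 and 9.05 in WT. Of the 4 WT pools, 3 lay above all KO pools and WT pool 2 lay among them, so the groups overlapped. The difference was -0.21 (SE 0.10, 95% confidence interval -0.44 to 0.02, adjusted p = 0.371 in limma). It was the largest in size among the 8 uncalled members and not past the test.

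Anxa5, whose product covers exposed phosphatidylserine, stood at 7.86, 7.86, 7.85 and 7.99 in KO and at 8.02, 7.68, 7.89 and 7.95 in WT. The KO pools lay within the WT range, and the interval of the difference ran from -0.20 to 0.21. Anxa6, which encodes the family member with a duplicated core, stood at 9.47, 9.64, 9.42 and 9.43 in KO and at 9.14, 9.37, 9.51 and 9.47 in WT. WT pool 1 was the lowest of the 8, the other pools mixed, and the difference was 0.11 (95% confidence interval -0.11 to 0.34).

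Anxa4 encodes a protein of epithelial and secretory membranes. It stood at 6.19, 6.22, 6.31 and 6.30 in KO and at 6.42, 6.03, 6.52 and 6.39 in WT. Of the WT pools 3 lay above the KO pools and WT pool 2 below them, and the difference was -0.08 (95% confidence interval -0.32 to 0.15). Anxa7 encodes synexin, a membrane fusion protein. It ranged from 7.36 to 7.53 in KO and from 7.32 to 7.42 in WT, with a difference of 0.06 (95% confidence interval -0.11 to 0.23), and had the smallest SE of the 9 genes at 0.08.

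Anxa3, Anxa8 and Anxa9 lay below the median of all probe sets, which was 3.68 to 3.74 on the 8 arrays, where RMA values flatten and a fold is understated. Anxa3, known as a gene of neutrophils and epithelia, ranged from 2.53 to 3.18 in KO and from 2.67 to 3.05 in WT. Anxa8 ranged from 2.44 to 2.74 in KO and from 2.43 to 2.75 in WT. Anxa9, an unusual member with degenerate calcium sites, ranged from 3.28 to 3.52 in KO and from 3.16 to 3.66 in WT. In all 3 genes the groups overlapped, and the differences were -0.07, -0.07 and 0.04. The annexins Anxa10 and Anxa13, which were not among the 10 chosen genes, were likewise low in both groups. Anxa10 averaged 2.43 in KO and 2.37 in WT and Anxa13 2.61 and 2.74, with differences of 0.06 and -0.13 that were not called (adjusted p = 0.862 and 0.630 in limma).

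Over the 8 uncalled members, 4 differences were positive and 4 negative, adjusted p ran from 0.371 to 0.991, and the outermost bounds of their 95% intervals were -0.44 and 0.34. Those bounds correspond to a 1.35-fold fall and a 1.26-fold rise. The interval of Anxa1 begins at 1.56. The sign of a difference this small is not settled, and for Anxa3, Anxa4, Anxa5, Anxa9 and Anxa10 it turned when a single pool was left out or when a marker covariate or another scaling was used.

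**Figure D2:**
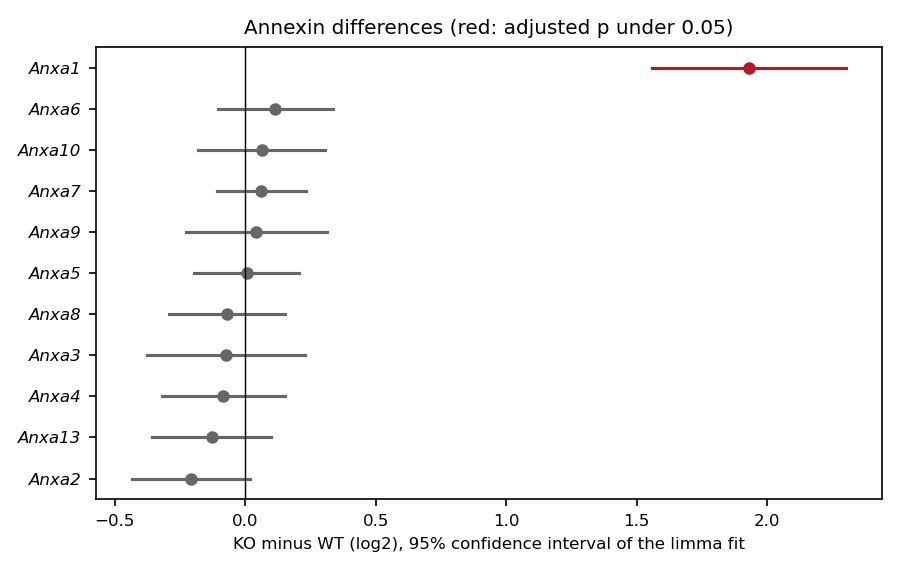
Difference between KO and WT (log2) for the 9 annexin genes and for Anxa10 and Anxa13, with the 95% confidence interval of the limma fit. Red marks adjusted p under 0.05. Anxa1 lies at 1.93, and the intervals of the other 10 genes include 0.

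Anxa11 encodes the annexin with a long amino-terminal tail that binds PDCD6 and tethers RNA granules to lysosomes. Its 3 probe sets are listed for Anxa11 together with Gm2274 and Gm2260, so no value can be given to Anxa11 itself. Of these 3 probe sets, 2 held identical values on all arrays and stood at 8.86 ± 0.08 in KO and 8.59 ± 0.13 in WT (SD, n = 4), a difference of 0.26 before rounding (SE 0.09). The other stood at 6.50 ± 0.17 in KO and 6.24 ± 0.03 in WT, also a difference of 0.26. When each probe set of the table was tested as a feature of its own, adjusted p in limma was 0.250 and 0.285, so the shared signal was not called. The KO and WT pools overlapped in each of the 3.

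The profiles most like that of Anxa1 over the 8 arrays were those of Il9r, Vpreb3 and Rgs18. Likeness was measured as the root mean square difference between profiles centred on each gene's mean, in log2 units. It was 0.19 for Il9r, a cytokine receptor chain, 0.23 for Vpreb3, a B cell gene, and 0.25 for Rgs18, a regulator of G protein signalling. Il9r stood at 8.49, 8.61, 8.99 and 8.70 in KO and at 6.92, 6.24, 6.88 and 6.91 in WT. Rgs18 stood at 5.99, 5.99, 6.39 and 7.02 in KO and at 4.99, 3.48, 4.32 and 4.23 in WT. For Anxa1, Il9r and Rgs18, WT pool 2 was the lowest of all pools, and for Anxa1, Vpreb3 and Rgs18, KO pool 4 was the highest. Their differences were 1.96 for Il9r, 1.82 for Vpreb3 and 2.09 for Rgs18. Because the 3 genes were picked by likeness over these same 8 arrays, a similar pool order and difference follow from the choice. Rgs18 was not called without moderation of the variance (adjusted p = 0.0768 in limma, and 0.00194 to 0.0768 over its alternatives).

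Among genes for binding partners of annexins, 3 of 13 tested fell and 0 rose, against 2.10% of all tested genes called as lower in KO. The list median was 0.01, and 7 of 13 differences were positive. The groups did not overlap for 6 of 13, against 10.5% of all tested genes. Ahnak2, a giant scaffold gene related to Ahnak, fell 3.09-fold. It stood at 7.33, 7.39, 7.05 and 7.46 in KO and at 8.92, 8.30, 9.26 and 9.25 in WT, with no overlap and a difference of -1.63 (SE 0.19, adjusted p = 0.00100 in limma). Its call held in all 21 alternatives, with adjusted p up to 0.0453. The difference was smallest, at -1.31, when all probe sets of Ahnak2 were averaged.

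S100a4, which encodes a calcium-binding protein of motile cells that binds ANXA2, fell 1.52-fold. It stood at 9.59, 9.76, 10.07 and 10.04 in KO and at 10.54, 10.66, 10.31 and 10.38 in WT, a difference of -0.61 (SE 0.12, adjusted p = 0.0228 in limma). Ahnak, whose product is held at the plasma membrane by the ANXA2 and S100A10 complex, stood at 9.19 ± 0.09 in KO and 9.57 ± 0.07 in WT (SD, n = 4), a difference of -0.38 (adjusted p = 0.0293 in limma). Neither pair of groups overlapped. Omitting KO pool 1, KO pool 2, WT pool 1 or WT pool 2 ended the call of S100a4 (adjusted p = 0.0546, 0.0707, 0.0635 and 0.0701, up to 0.238 over its alternatives), and omitting KO pool 1 or 2 or WT pool 2, 3 or 4 ended that of Ahnak (adjusted p = 0.0776 to 0.0849, up to 0.261). The mean of 16 T cell marker genes was higher in KO (5.73) than in WT (4.65). Adding it to the model as a covariate also ended both calls, at differences of -0.45 for S100a4 (adjusted p = 0.238 in limma) and -0.30 for Ahnak (adjusted p = 0.261), and left that of Ahnak2 (adjusted p = 0.0201).

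S100a10, the direct partner of ANXA2, stood at 10.80, 11.07, 11.11 and 11.19 in KO and at 11.12, 11.11, 11.26 and 11.05 in WT. The groups overlapped, and the difference was -0.09 (95% confidence interval -0.31 to 0.12, adjusted p = 0.739 in limma). S100a11, whose product binds ANXA1, differed by 0.18 (95% confidence interval -0.01 to 0.36), and S100a6 by -0.07. Pdcd6, which encodes the calcium sensor that binds ANXA7 and ANXA11, differed by 0.13, and Sri, the ANXA7 partner sorcin, by 0.26. S100a1 had the largest positive difference of the list, 0.28 (95% confidence interval 0.10 to 0.47). For S100a1, Pdcd6 and Sri every KO pool lay above every WT pool. None of these genes was called (adjusted p = 0.108 for S100a1, 0.123 for Sri and 0.357 to 0.739 for the rest in limma).

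A further list holds genes for the receptors of ANXA1 and for eicosanoid synthesis, the pathway ANXA1 is known to restrain. In limma 0 of its 12 tested genes were called, against 3.59% of all tested genes. The list median was -0.08. An unadjusted p under 0.05 in limma was seen for 2 of 12, near the share of 3398 of 22180 over all genes. These 2 were Lta4h, which encodes leukotriene A4 hydrolase, and Pla2g4a, which encodes cytosolic phospholipase A2. Lta4h stood at 7.20, 7.32, 7.12 and 7.04 in KO and at 6.93, 6.80, 6.89 and 6.61 in WT. These groups did not overlap, but the difference of 0.36 was not called (adjusted p = 0.0770 in limma). It was called in 3 of 21 alternatives, among them the test of brighter genes alone (adjusted p = 0.0416, and 0.0416 to 0.455 over its alternatives). Pla2g4a differed by 0.31 at values below 3.9 on all arrays (adjusted p = 0.177). Ptges, a prostaglandin E synthase gene, had the next smallest p and differed by -0.19 (adjusted p = 0.488). Fpr2, the formyl peptide receptor gene that was measured, was near the lower end of the array scale at 2.16 ± 0.25 in KO and 2.33 ± 0.18 in WT (SD, n = 4).

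In the glucocorticoid response list, which bears on ANXA1 as a known target of these hormones, 1 of 12 genes rose and 0 fell, against 1.49% and 2.10% of all tested genes. The list median was 0.21 against 0.02 over all genes, and 11 of 12 differences were positive, against 12100 of 22180 over all genes. The riser was Klf9, which encodes a Krüppel-like transcription factor. It stood at 5.06, 5.23, 5.10 and 5.20 in KO and at 4.29, 4.03, 4.42 and 4.49 in WT, with no overlap, a 1.79-fold difference (0.84 on the log2 scale, SE 0.11) and adjusted p = 0.00160 in limma. Its call held in all 21 alternatives, with adjusted p up to 0.0324.

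Other genes of that list that are widely used as readouts of the receptor were not called. Tsc22d3, which encodes the glucocorticoid-induced leucine zipper GILZ, stood at 7.07 ± 0.12 in KO and 7.05 ± 0.13 in WT (SD, n = 4), a difference of 0.02 (95% confidence interval -0.19 to 0.23). Fkbp5, a chaperone partner of the receptor, differed by 0.24 (95% confidence interval -0.09 to 0.57). Per1 differed by 0.27 (95% confidence interval 0.01 to 0.54) and Nr3c1, the receptor gene itself, by 0.21 (0.03 to 0.40) (adjusted p = 0.312 and 0.229 in limma). Klf13 differed by 0.26 (95% confidence interval 0.06 to 0.46, adjusted p = 0.178 in limma). In the list 4 of 12 genes had an unadjusted p under 0.05 in limma, against 3398 of 22180 over all genes. The groups did not overlap for 3 of 12, Klf9, Nr3c1 and Klf13, against 10.5% of all tested genes.

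Among genes for exposing or recognising phosphatidylserine, the lipid that annexins bind, 1 of 16 rose and 0 fell, against 1.49% and 2.10% of all tested genes, with a list median of -0.03. Ano6, which encodes a calcium-activated scramblase, stood at 7.06, 7.04, 7.08 and 7.11 in KO and at 6.73, 6.41, 6.70 and 6.72 in WT. The groups did not overlap and the difference was 0.43 (SE 0.09, adjusted p = 0.0276 in limma). Omitting any single pool other than WT pool 1 ended its call (adjusted p = 0.0518 to 0.0711, up to 0.140 over its alternatives). It was also not called with the T cell covariate (0.50, adjusted p = 0.0984). Xkr8, the scramblase gene of apoptosis, differed by -0.02 and Mfge8, which encodes a bridging protein for engulfment, by 0.00.

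In the membrane repair list 1 of 12 genes rose and 1 fell, against 1.49% and 2.10% of all tested genes, with a list median of 0.10. Both encode EHD family ATPases that shape endocytic membranes. Ehd1 stood at 9.77 ± 0.12 in KO and 9.25 ± 0.16 in WT, a difference of 0.52 (SE 0.10, adjusted p = 0.0175 in limma, n = 4 pools each). Ehd2 stood at 4.84 ± 0.02 in KO and 5.28 ± 0.21 in WT, a difference of -0.45 (SE 0.10, adjusted p = 0.0406). Ehd1 lost its call without KO pool 1, 2 or 4 (adjusted p = 0.0520 to 0.0537, up to 0.156 over its alternatives), and omitting any single pool other than WT pool 1 ended that of Ehd2 (0.0767 to 0.114, up to 0.213). Neither was called with the T cell covariate, where Ehd1 differed by 0.48 (adjusted p = 0.156) and Ehd2 by -0.44 (adjusted p = 0.213). Dysf, the gene for the membrane repair protein dysferlin, differed by -0.11 and was not called.

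The lists were drawn up with earlier results of these data known, and their counts are descriptions.

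**Figure D3:**
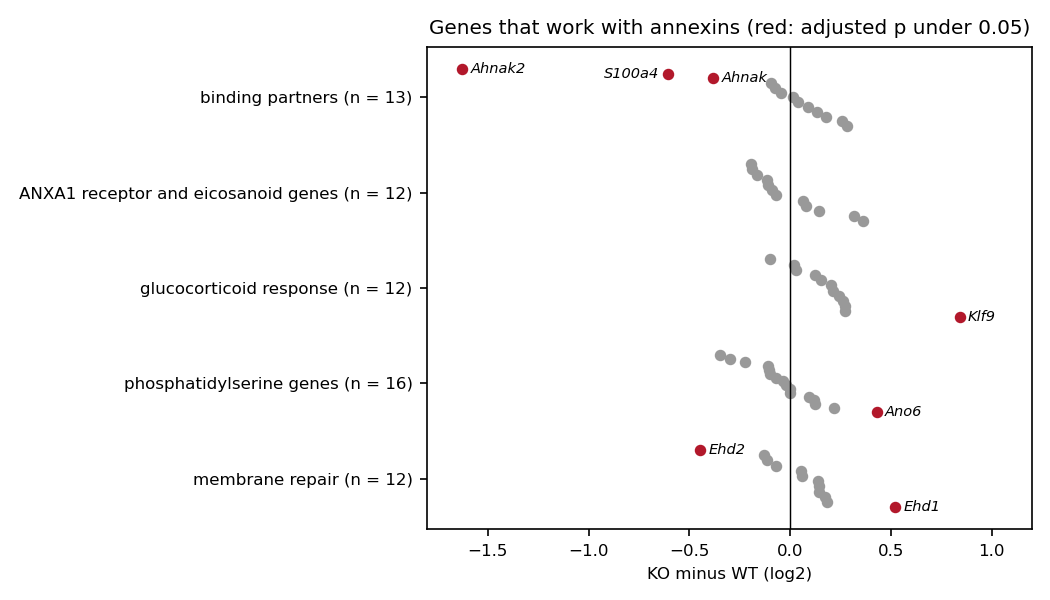
Difference between KO and WT (log2) for each tested gene of 5 lists of annexin-related genes, 1 point per gene. The glucocorticoid response list holds genes related to ANXA1 through the hormone. Red points with names had adjusted p under 0.05 in limma. Ahnak2 lies farthest from 0 at -1.63, and most points lie near 0.

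Paxip1, the deleted gene, stood at 4.38 ± 0.54 in KO and 7.05 ± 0.13 in WT (SD, n = 4) without overlap. The mean of 8 tested B cell markers was 10.09 to 10.20 in KO and 10.21 to 10.28 in WT, ranges that did not overlap, with a difference of -0.09. Of the 8, Cd22, which encodes an inhibitory co-receptor of B cells, was called, at 9.54 ± 0.13 in KO and 10.13 ± 0.21 in WT (SD, n = 4), lower by 0.59 (adjusted p = 0.0170 in limma). That call ended without KO pool 4 or WT pool 4, without KO pools 1 and 2 and with the T cell covariate (adjusted p up to 0.138 over its alternatives). The other 7 were not called and differed by -0.06 to 0.04, so the lower list mean came mainly from Cd22. Cd5, which defines B-1a cells and was 1 of these 7, stood at 7.48 ± 0.19 in KO and 7.44 ± 0.15 in WT. All 16 tested T cell markers and all 12 tested NK cell markers had positive differences, and 0 and 2 of them were called. Over all tested genes 12100 of 22180 differences were positive, 1.49% were called as higher in KO and 2.10% as lower. The T cell gene nearest to a call was Gata3, which differed by 0.58 (adjusted p = 0.0501 in limma), and Cd3e, a chain of the T cell receptor complex, differed by 2.21 (adjusted p = 0.0774). The called NK cell genes, Klrb1c and Klrd1, encode lectin-like receptors and were higher by 0.73 and 1.83 (adjusted p = 0.0362 and 0.0387), and each lost its call in 12 of 21 alternatives. The list means ranged from 4.71 to 6.67 in KO and from 4.23 to 5.05 in WT for T cells, and from 4.34 to 5.52 against 3.64 to 4.44 for NK cells. In bulk samples, a different number of cells of a type and a different amount of RNA per cell cannot be told apart. Macrophage list means ranged from 4.64 to 4.98 in KO and from 4.64 to 5.42 in WT, and 6 of 14 differences were positive. Of the 14 markers 1 was called, Cd68, lower in KO by 0.56 (adjusted p = 0.0275 in limma), a call lost in 11 of 21 alternatives. Neutrophil and eosinophil list means differed between the groups by 0.00 and 0.06, and dendritic cell and mesothelial or stromal list means by 0.19 and -0.05. In the mesothelial or stromal list 1 of 10 genes was called, the keratin gene Krt8. It stood at 5.09 ± 0.07 in KO and 6.12 ± 0.30 in WT (SD, n = 4) without overlap, lower by 1.03 (adjusted p = 0.00196 in limma), and its call held in all 21 alternatives. The part of these marker levels in the differences of other genes was not tested beyond the covariate fits.

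T cells, NK cells and macrophages are known to express Anxa1, so the marker levels are given beside it. Among KO pools, the T cell marker mean was highest in pool 1, at 6.67, where Anxa1 was lowest, at 6.52. KO pool 3 had the lowest T cell marker mean of the KO pools, at 4.71, within the WT range, and its Anxa1 value was 6.94. Without KO pools 1 and 2, the pools with the highest T cell marker means, the Anxa1 difference was 2.16 (SE 0.18, adjusted p = 0.00124 in limma). Adding the mean of the T cell markers to the model gave 2.19 (adjusted p = 0.000713), and with the macrophage marker mean 1.97 (adjusted p = 0.000486). The NK cell marker mean was also highest in KO pool 1, at 5.52. It was lowest among KO pools in pool 3, at 4.34, within the WT range of 3.64 to 4.44. In KO pool 3 the called NK cell genes Klrb1c and Klrd1 stood above every WT pool, at 4.43 and 5.19. The part of NK cell marker levels in the Anxa1 difference was not tested with a covariate.

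Among WT pools, pool 1 had the highest macrophage marker mean, at 5.42, the highest mast cell marker mean, at 4.01 against 3.0 to 3.22 in the other WT pools, and the highest Anxa1 value, at 5.25. The mast cell protease gene Cpa3 stood at 7.0 there and at 3.75 to 4.14 in the other WT pools. In every KO pool Cpa3 lay between these levels, at most at 5.48. The mast cell marker mean was 3.23 to 3.58 in KO, below WT pool 1 and above the other WT pools. Kit and Ms4a2, also mast cell markers, were highest among WT pools in pool 2, at 3.25 and 3.17, against 3.03 and 3.01 in pool 1. The part of mast cell marker levels in the Anxa1 difference was not tested with a covariate. Without WT pool 1 the Anxa1 difference was 2.04 (adjusted p = 0.000435 in limma).

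**Figure D4:**
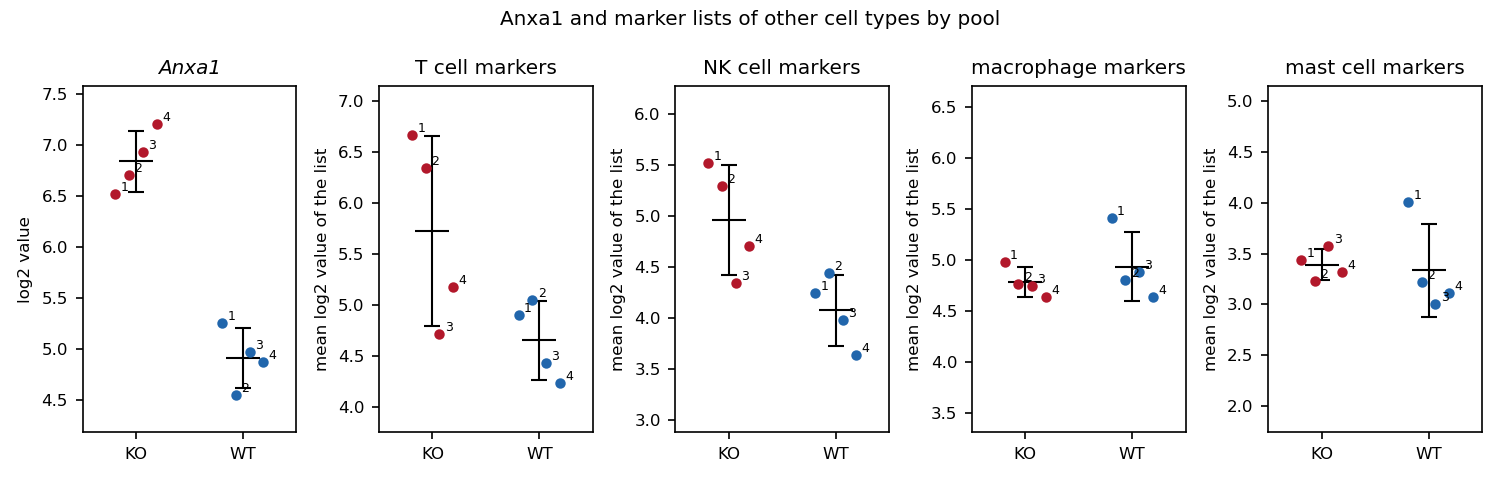
Anxa1 (log2 value) and the mean log2 value of the T cell, NK cell, macrophage and mast cell marker lists in each pool, KO in red and WT in blue, with replicate numbers. Bars are means and whiskers the SD of 4 pools, and all panels span the same number of log2 units. Anxa1 separates the groups without overlap, while the T cell means spread from 4.71 to 6.67 among KO pools.

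The call of Anxa1 held in all 21 alternatives, which changed the scaling, the probe set rule, the set of genes, the prior, the weights, the threshold or the covariates, or left out pools. Anxa1 had 1 probe set, so averaging probe sets could not change its values, and the stricter threshold used the same fit. Its difference lay between 1.81 and 2.19 and its adjusted p in limma between 1.96e-05 and 0.0219. The highest of these came without moderation of the variance. Leaving out 1 pool moved the difference between 1.81, without KO pool 4 or WT pool 2, and 2.04, without WT pool 1 or KO pool 1.

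**Figure D5:**
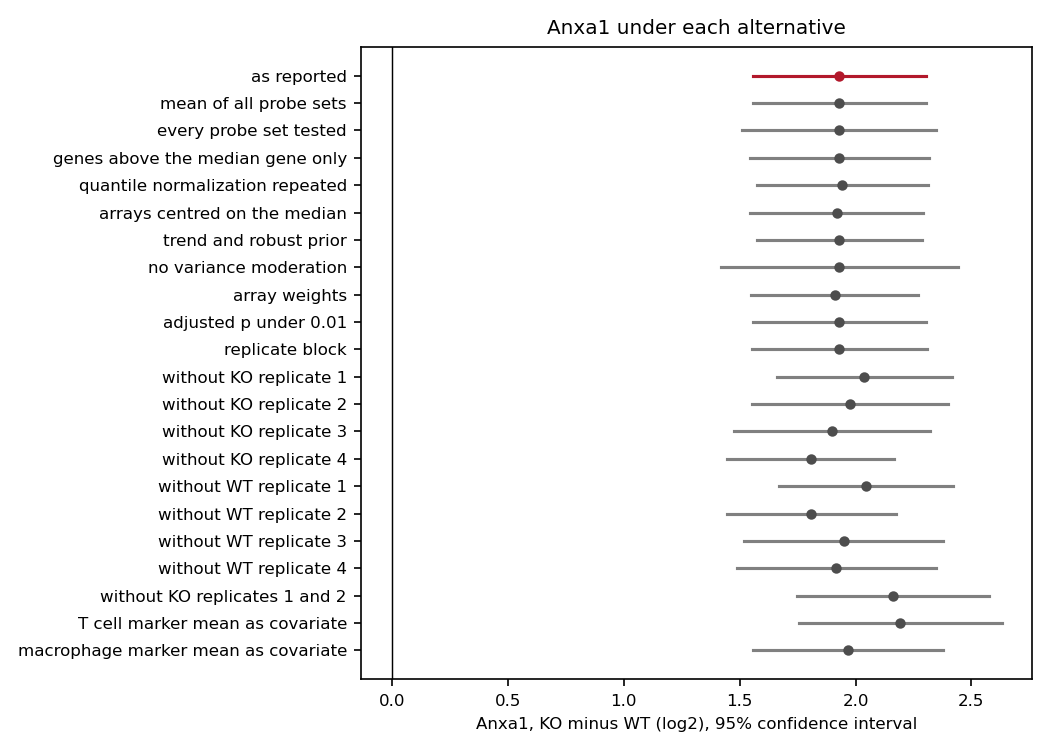
Difference of Anxa1 between KO and WT (log2) with its 95% confidence interval, as reported (red) and under each of 21 alternatives (grey). The difference ranges from 1.81 to 2.19, and no interval reaches 1.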

How the data were processed

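The 8 arrays were deposited as RMA log2 values of 41345 probe sets; RMA and R 3.2.2 come from the submitters' processing notes. Package, probe set annotation and genome build: not given in the sources used here. Precision is limited by the number of arrays. Gene names came from the platform annotation, in which 23521 probe sets had 1 symbol, 1814 had more and stayed unnamed, and 16010 did not appear. Of those with 1 symbol, 23328 had a gene identifier found in a RefSeq table (GRCm38.p6), and the symbol given there was used. For 1082 genes with several probe sets the brightest was kept.

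KO was compared with WT with limma 3.58.1 in R 4.3.3 (lmFit, eBayes, two-sided, Benjamini-Hochberg over 22180 genes), which was also tested on simulated data. An error is an SD over pools or an SE of the fit. How the mice were spread over the pools is not known here, so p values measure the spread between these pools.

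The members and lists were chosen with earlier results of these data known. Anxa2r1, Anxa2r2, Fpr1, Fpr3, Ptgs1, Capn1 and a few other listed genes matched no tested gene and were not analysed here. Named genes are all members, Anxa10 and Anxa13, the called genes of each list of annexin-related genes or otherwise its 3 with the smallest p, defining cell type markers, and the 3 genes most like each called member, leaving out predicted genes. Other genes named from the lists were picked after their values were seen.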

Additional observations from a re-analysis of the deposited data

Results flagged for a closer look

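Within groups of 4 pools, 4 of the values checked had 1 pool far from the other 3 by Dixon's test, in 78 groups checked. Chance alone gives about 1 such group in 20. Anxa5 in KO pool 4 stood at 7.99 against 7.85 to 7.86 in the other KO pools. Anxa8 in WT pool 1 stood at 2.43 against 2.71 to 2.75. Ano6 in WT pool 2 stood at 6.41 against 6.70 to 6.73, and Il9r in the same pool at 6.24 against 6.88 to 6.92.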

How the results depend on the processing

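The count of called annexin members was 1 in the main comparison and in all 21 alternatives, pools left out included (1 to 1). The 797 called genes of the whole table became 303 without moderation of the variance, 311 at adjusted p under 0.01, 320 without KO pools 1 and 2, 297 with T cell markers as a covariate and 479 to 758 with 1 pool left out. The replicate number as a block left 666. Same-numbered KO and WT pools had correlations of deviations of 0.04 to 0.11, not all above 0.1, and KO pools 3 and 4 correlated best with another number, so the numbers were not taken to pair the pools. The block ended the calls of S100a4, Ahnak, Ehd2 and Klrb1c among the genes named (adjusted p = 0.0611, 0.0617, 0.0684 and 0.0918 in limma), and adjusted p of Anxa1 was 0.00116. Signs turned for Anxa4 with the T cell covariate (0.035), for Anxa9 with the same covariate (-0.108) and for Anxa5 with arrays centred on the median (-0.0071). With 1 pool left out, differences ran from -0.190 to 0.0256 for Anxa3, -0.0633 to 0.0484 for Anxa5, -0.0318 to 0.134 for Anxa9 and -0.0230 to 0.128 for Anxa10, also turning sign, and none of these 5 genes was called in any alternative. The cause was not tested. Second probe sets could not be compared, since no member had more than 1 of its own. Anxa3, Anxa8, Anxa9, Anxa10 and Anxa13 had no value in the test of brighter genes alone, and low signal limits what these arrays show of them.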
